A study of Mus musculus with 12 samples.

Results

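Chromatin at imprinted genes was described in the embryonic mouse forebrain, with and without the Polycomb subunit Eed. The members are 36 genes with known expression from the allele of a given parent, and they were found by symbol in promoter tables of 55276 symbols and 55385 windows. All 36 listed genes were present and 0 were absent. By general knowledge of the mouse, 22 were classed as paternally expressed, 10 as maternally expressed and 4 as dependent on the isoform or tissue. Genes in the paternal and maternal classes may also depend on tissue. The 36 members form 17 clusters, of which 8 hold more than 1 member. Each gene is measured in a window of 2 kb around an annotated start. Reads were not split by parental allele, so a count is the sum over both parental alleles. Whether each member is expressed from a single allele in this tissue was not measured. The windows of Peg3 and Usp29 overlap by 1853 bp and those of Peg10 and Sgce by 1901 bp, so the genes of each pair share most of their reads.

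An imprinted gene is expressed mainly from the allele inherited from the mother or mainly from that of the father, and most such genes lie in clusters under a control region whose DNA methylation differs between the alleles. Polycomb repressive complex 2 (PRC2) trimethylates histone H3 at lysine 27 (H3K27me3), a mark of silent promoters rich in CpG, and Eed is the subunit through which the complex binds its own mark. H3K27me3 is known on the silent allele of several imprinted genes, above all in the placenta, and at a few genes such as Sfmbt2 it carries the imprint itself in the early embryo. Acetylation of the same lysine (H3K27ac) and RNA polymerase II (RNA-Pol2) mark active promoters.

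The tissue was forebrain of C57BL/6 embryos at E12.5, untreated in both groups. The groups were wild type and a genotype labelled EedcKO. The labels do not say what drives the deletion, which part of Eed it removes, the sex of the embryos or how many went into a library. Cross-linked chromatin immunoprecipitation gave the Eed and input libraries. CUT&Tag, where a transposase tethered to the antibody cuts nearby DNA, gave those of H3K27me3, H3K27ac and RNA-Pol2, with IgG as their control. Each of the 12 groups had 1 library. None of the differences below therefore has a replicate check, and they carry no p-value. Whole tissue was used, so fewer cells with a mark and less of it per cell cannot be told apart.

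Promoter counts summed to between 948955 and 3842779 per library, and the median member held between 21 and 70 reads. At the members, the library labelled EedcKO H3K27ac went against its label. Its log2 levels over the 36 members followed wild type H3K27me3 (Pearson's r 0.981) and not wild type H3K27ac (-0.00246). Over all promoters these values were 0.936 and 0.680. For the library labelled EedcKO H3K27me3, r over the members was 0.101 to its wild type namesake, 0.704 to wild type acetylation and 0.765 to wild type RNA-Pol2. Over all promoters these were 0.736, 0.867 and 0.931. To EedcKO IgG its r was 0.523 over the members and 0.871 over all promoters. These points share their windows, and genes are not replicates. Both libraries are therefore called by their labels below, and each H3K27 result is given with both of them. The window at the start of Eed itself (chr7:89979983-89981982, mm10) held 121 reads in wild type Eed and 40 in EedcKO Eed, 31 and 79 in the libraries labelled H3K27me3, 130 and 35 in those labelled H3K27ac, 89 and 246 in RNA-Pol2, 27 and 19 in input, and 20 and 50 in IgG. Whether that window lies in the deleted part is not given, so these reads do not check the deletion. Of 18 forebrain genes, 8 had wild type H3K27ac at least 2-fold over IgG, beside 15.9% of all promoters and 30.5% of protein-coding ones, and 0 of 8 genes each of blood, microglia, endothelium and mesenchyme did. Wild type H3K27me3 was over IgG at 14 of the same 18 forebrain genes, beside 7.62% and 13.3%, at 4 of 8 endothelial and 4 of 8 mesenchyme genes, and at 0 of the blood and microglia genes.

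Promoter sequence differed widely among members, and 7 stretches are shown to set marked beside unmarked promoters. They are RefSeq sequences of assembly GRCm38.p6, 250 bases before to 50 after the start, written 5′ to 3′ on the gene's strand with each CpG in capitals. Dio3, Zdbf2, Ascl2 and Sfmbt2 carried H3K27me3 in wild type forebrain, Ube3a and Peg12 carried Eed but little H3K27me3, and Rian carried neither.
Dio3, chr12:110278980-110279279, plus strand: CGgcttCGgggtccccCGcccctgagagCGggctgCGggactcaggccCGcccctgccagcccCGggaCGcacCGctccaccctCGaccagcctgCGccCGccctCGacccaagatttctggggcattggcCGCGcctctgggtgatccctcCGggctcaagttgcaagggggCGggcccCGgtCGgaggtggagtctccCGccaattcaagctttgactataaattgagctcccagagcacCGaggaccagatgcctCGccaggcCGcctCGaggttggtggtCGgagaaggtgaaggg
Zdbf2, chr1:63273019-63273318, plus strand: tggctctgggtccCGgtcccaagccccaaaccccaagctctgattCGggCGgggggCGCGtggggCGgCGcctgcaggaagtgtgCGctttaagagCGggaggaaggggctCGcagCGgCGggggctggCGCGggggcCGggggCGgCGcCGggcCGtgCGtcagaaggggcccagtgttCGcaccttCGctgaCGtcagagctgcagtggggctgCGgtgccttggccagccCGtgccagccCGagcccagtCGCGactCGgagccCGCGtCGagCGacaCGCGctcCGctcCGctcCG
Ascl2, chr7:142969215-142969514, minus strand: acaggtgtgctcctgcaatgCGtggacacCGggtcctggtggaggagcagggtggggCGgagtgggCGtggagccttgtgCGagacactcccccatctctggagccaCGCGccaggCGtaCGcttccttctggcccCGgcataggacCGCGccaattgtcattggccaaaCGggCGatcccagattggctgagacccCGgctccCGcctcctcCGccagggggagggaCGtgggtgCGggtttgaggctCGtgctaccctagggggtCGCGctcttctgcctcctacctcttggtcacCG
Sfmbt2, chr2:10370201-10370500, plus strand: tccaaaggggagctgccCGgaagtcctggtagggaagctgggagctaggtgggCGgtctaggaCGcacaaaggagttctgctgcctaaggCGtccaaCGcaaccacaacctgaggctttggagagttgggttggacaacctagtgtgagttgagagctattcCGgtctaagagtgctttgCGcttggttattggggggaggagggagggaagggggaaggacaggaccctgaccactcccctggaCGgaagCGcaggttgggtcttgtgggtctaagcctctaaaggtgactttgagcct
Ube3a, chr7:59228500-59228799, plus strand: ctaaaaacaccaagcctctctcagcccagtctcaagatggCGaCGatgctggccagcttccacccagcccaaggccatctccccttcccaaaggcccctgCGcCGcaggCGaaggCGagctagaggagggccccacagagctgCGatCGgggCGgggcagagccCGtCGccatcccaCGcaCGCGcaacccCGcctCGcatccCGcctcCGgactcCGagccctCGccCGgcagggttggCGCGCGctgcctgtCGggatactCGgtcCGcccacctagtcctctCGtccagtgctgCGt
Peg12, chr7:62464461-62464760, minus strand: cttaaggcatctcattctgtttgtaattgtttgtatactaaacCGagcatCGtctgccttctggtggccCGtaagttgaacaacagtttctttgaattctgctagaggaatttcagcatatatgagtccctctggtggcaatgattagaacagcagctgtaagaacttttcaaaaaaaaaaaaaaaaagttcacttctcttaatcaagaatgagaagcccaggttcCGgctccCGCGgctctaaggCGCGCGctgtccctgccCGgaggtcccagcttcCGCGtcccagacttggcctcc
Rian, chr12:109603695-109603994, plus strand: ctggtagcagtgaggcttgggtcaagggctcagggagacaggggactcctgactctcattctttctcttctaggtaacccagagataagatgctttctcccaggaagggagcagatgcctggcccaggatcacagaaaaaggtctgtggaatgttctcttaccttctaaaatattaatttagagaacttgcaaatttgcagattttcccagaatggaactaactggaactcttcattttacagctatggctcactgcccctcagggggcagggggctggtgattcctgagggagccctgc

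These stretches held 25 CpG in Dio3, 38 in Zdbf2, 23 in Ascl2, 9 in Sfmbt2, 29 in Ube3a, 12 in Peg12 and 0 in Rian. RefSeq entries were found for 31 members, and 26 of these had a start inside the window. Over those 26 the median was 14 CpG, beside 13 over 17696 promoters of all genes. The 10 of them with Eed over input had a median of 15.5 and the other 16 a median of 13. Across the 26 members the number of CpG had a Pearson correlation of 0.503 with the log2 ratio of wild type Eed to input, beside 0.722 across 17059 promoters; the points come from 1 pair of libraries. The letters TGCCGC, the core of the motif of ZFP57, a factor that keeps DNA methylation at imprinted control regions, were searched on both strands. They were found in 3 of the 26 (Meg3, Nnat and Nap1l5), a share of 11.5%, beside 14.1% of all promoters.

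In wild type forebrain, H3K27me3 was concentrated on a small group of members. Levels are reads per kb of window, scaled to the promoter reads of the library (RPKM), and a ratio is taken after adding 0.5 RPKM to both libraries. The signal was at least 2-fold over IgG at 10 of 36 members, beside 7.62% of all promoters and 13.3% of protein-coding ones. These were the growth factor gene Igf2, the growth regulators Dlk1, Grb10 and Phlda2, the thyroid hormone deiodinase gene Dio3, the signalling gene Gnas, the regulators of transcription Ascl2 and Sfmbt2, the zinc finger gene Zdbf2, and the neuronal membrane protein gene Nnat. The Gnas window covers only the most upstream of the RefSeq starts of that gene. Of the 10, 6 are paternally expressed, 2 maternally and 2 depend on isoform or tissue. The group had a gap below it: 9 of the 10 held between 418 and 993 wild type H3K27me3 reads, the next member, Plagl1, held 192, and all others held between 14 and 96. Nnat was counted at the margin, with 46 H3K27me3 reads and only 9 IgG reads (log2 ratio 1.08, 95% interval 0.14 to 2.41), while Plagl1 was just below the 2-fold limit with 192 and 51 reads (log2 ratio 0.73).

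Sfmbt2, which encodes a Polycomb-related protein with MBT repeats, held 747 H3K27me3 reads against 18 IgG reads, a log2 ratio of 4.11 (interval 3.54 to 4.98). Zdbf2 held 650 against 20 reads, a log2 ratio of 3.77 (interval 3.22 to 4.58). Dio3, whose product inactivates thyroid hormone, held 993 against 32 reads, a log2 ratio of 3.74 (interval 3.29 to 4.35). These members thus lay far above IgG, and their intervals, which cover counting error only, overlap. Dlk1, a Notch-like growth regulator, followed with 562 against 25 reads and a log2 ratio of 3.26. Phlda2, which restrains growth of the placenta, held 687 against 34 reads, and Ascl2, a transcription factor of the trophoblast, 773 against 52. Both are maternally expressed and stand at opposite ends of the Kcnq1ot1 cluster. Grb10, an adaptor that restrains insulin and IGF signalling, held 569 against 31 reads, Gnas 418 against 32 and Igf2 472 against 44. In all 9 of these, wild type H3K27ac was below 2-fold over IgG, with counts between 14 and 63, and so was RNA-Pol2, with counts between 12 and 80.

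**Figure D1:**
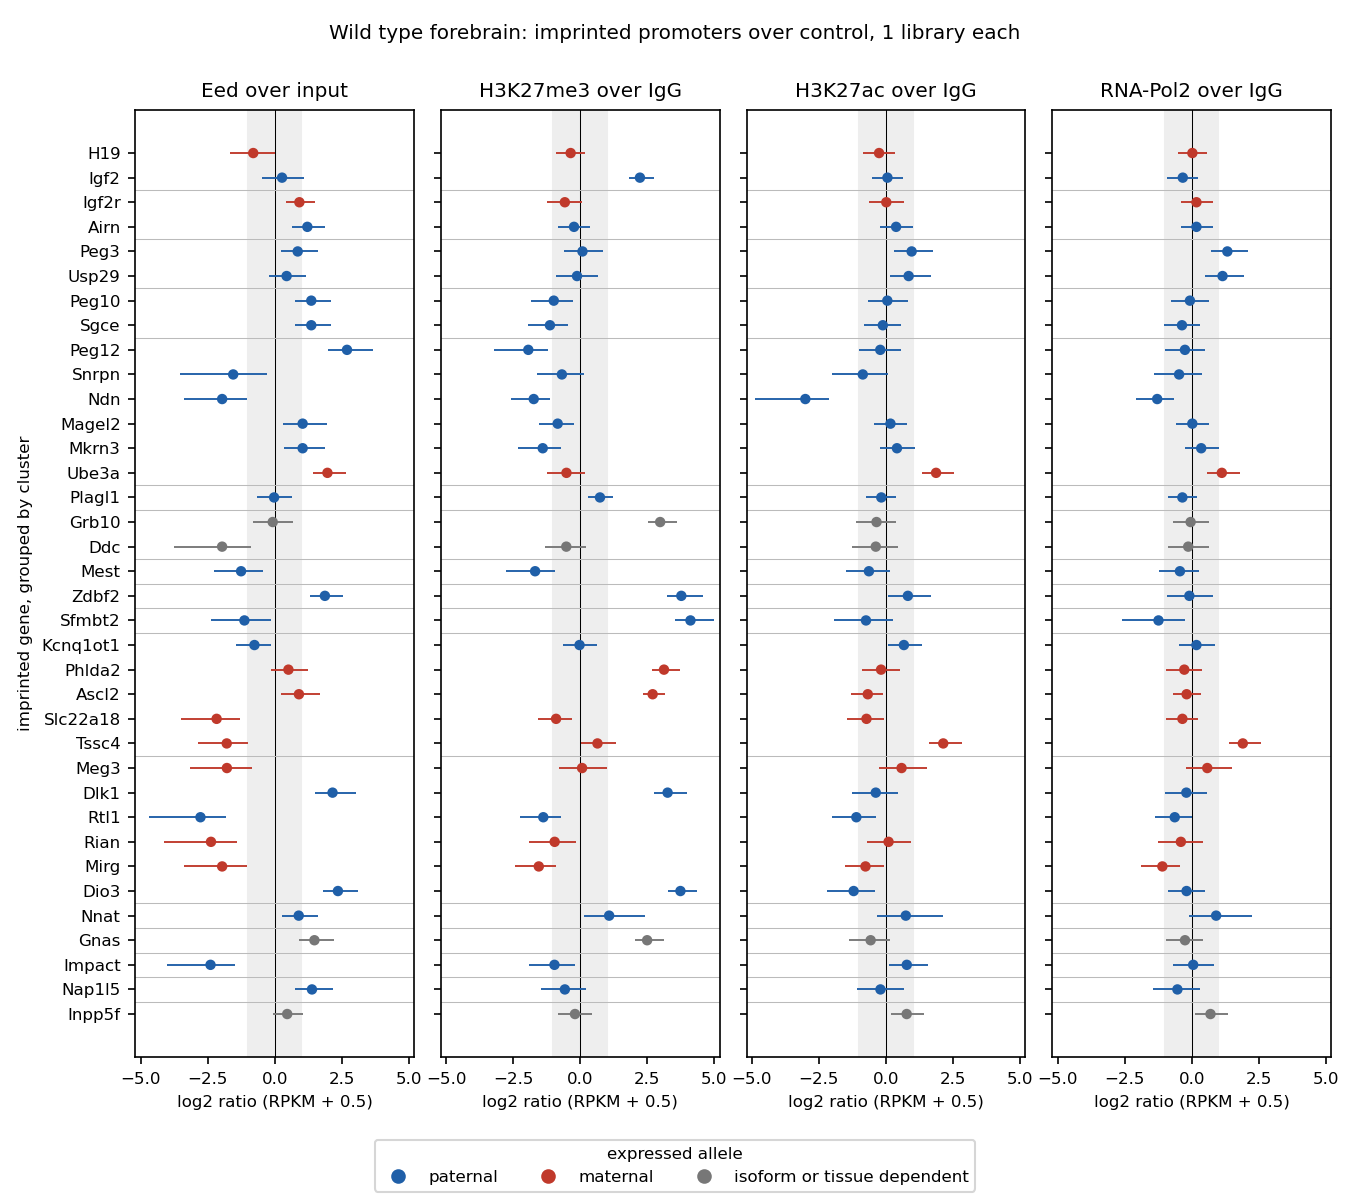
Log2 ratio of each wild type target to its control at the 36 imprinted promoters, 1 library each; horizontal lines are exact 95% intervals from counting error, and the grey band marks less than 2-fold. For H3K27me3, 10 members lie right of the band. Of these, 9 stand apart at 2.22 or more, and Nnat at 1.08 lies close to Plagl1 at 0.73 inside the band. Eed spreads to both sides of the band, and few points of H3K27ac and RNA-Pol2 leave it on the right.

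Eed in wild type forebrain had a wider distribution and was not confined to members with H3K27me3. It was at least 2-fold over input at 12 of 36 members, beside 14.5% of all promoters and 28.6% of protein-coding ones. This count depends on scaling: the median promoter had a log2 ratio of -1.32, and with that median taken out the count was 22. Shares over all promoters were not computed for this or any other alternative scaling below. Counts under those scalings therefore have no background beside them. The 12 were Peg12, Dio3, Dlk1, Ube3a, Zdbf2, Gnas, Nap1l5, Peg10, Sgce, Airn, Mkrn3 and Magel2. Of these, 10 are paternally expressed, 1 (Ube3a) maternally, and Gnas depends on isoform. Peg10 and Sgce, both among the 10, share most of their reads.

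Peg12, a gene of the Snrpn-Ube3a cluster whose product binds GSK3, held 187 Eed reads against 14 input reads, a log2 ratio of 2.70 (interval 2.00 to 3.69). Its H3K27me3 count was 14 against 28 in IgG, the lowest H3K27me3 count among the members. Ube3a, the ubiquitin ligase gene mutated in Angelman syndrome and the maternally expressed gene of that cluster, held 203 Eed reads against 26 in input (log2 ratio 1.97) and 46 H3K27me3 reads against 30 in IgG. Both promoters thus held Eed reads at several times input with little or no H3K27me3 over IgG. In all, 8 of the 12 Eed members lacked H3K27me3 by the 2-fold rule: Airn, Peg10, Sgce, Peg12, Magel2, Mkrn3, Ube3a and Nap1l5, with 14 to 68 H3K27me3 reads each. They range from the silencing RNA Airn and the retrotransposon-derived Peg10 to Magel2 and Mkrn3, genes of the Prader-Willi region. In the other direction, 4 members carried both, namely Zdbf2, Dlk1, Dio3 and Gnas, with 139 to 237 Eed reads. Among the 24 members without Eed over input, 6 carried H3K27me3. The share of Eed promoters without H3K27me3 was not computed over all promoters. These counts are therefore not read as particular to imprinted genes. Sfmbt2 had the highest H3K27me3 ratio of all members but only 14 Eed reads against 17 in input in its window. Another Sfmbt2 start, 1.93 kb away, lies outside this window and is described below.

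At the low end, 12 members had wild type Eed at least 2-fold under input, with 6 to 20 Eed reads against 11 to 31 input reads. This share was not above the background, since 59.4% of all promoters and 36.8% of protein-coding ones were as far under input. The 12 include the retrotransposon-derived Rtl1 (6 against 27), the noncoding RNA genes Rian (7 against 23), Mirg (10 against 23) and Meg3 (11 against 22), the decarboxylase gene Ddc (7 against 17), Impact (8 against 26), a regulator of translation, and the transporter gene Slc22a18 (11 against 29). Of the 12, 5 are maternally and 6 paternally expressed. Low Eed and lack of CpG met in Rian, whose sequence above holds 0 CpG, but Tssc4 had 23 CpG and 16 Eed reads against 31 in input.

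H3K27ac was at least 2-fold over IgG at 2 of 36 members, Ube3a and Tssc4, beside 15.9% of all promoters and 30.5% of protein-coding ones, and at 9 with the median promoter taken out. RNA-Pol2 was at least 2-fold over IgG at 4 members, Ube3a, Tssc4, Peg3 and Usp29, beside 11.3% of all promoters and 20.7% of protein-coding ones. Tssc4, a gene of RNA splicing in the Kcnq1ot1 cluster, held 170 H3K27ac reads and 185 RNA-Pol2 reads against 27 in IgG. Ube3a held 156 and 118 reads against 30. Peg3, a zinc finger gene, held 110 RNA-Pol2 reads against 24 and 66 H3K27ac reads, for a log2 H3K27ac ratio of 0.96, just below the limit. Usp29, which shares most of that window, held 89 and 56 reads against 22. By these rules on window counts, 0 members carried both H3K27me3 and H3K27ac. With 10 members passing for H3K27me3 and 2 for H3K27ac, little overlap was possible. The share of all promoters with both marks was not computed, so nothing is read from this 0. A further 15 members passed for none of the 4 targets, among them H19, Igf2r, Mest, Snrpn, Ndn, Kcnq1ot1 and Inpp5f. The share of all promoters that passed for none was not computed either.

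In EedcKO forebrain, the H3K27 libraries gave opposite pictures by label at the marked members. Ratios between genotypes are log2 ratios minus their median over all tested promoters, meaning those whose mean level reached 1 RPKM. Those medians were 0.85 for H3K27me3, -1.04 for H3K27ac, 0.88 for Eed and -0.41 for RNA-Pol2. In the library labelled EedcKO H3K27me3, 13 of 36 members were at least 2-fold lower than in wild type, beside 13% of all promoters and 18% of protein-coding ones. The 13 were the 9 members with 418 or more wild type reads, Plagl1, and Magel2, Meg3 and Nap1l5. These 9 stand out by the same wild type reads that the ratio divides by, so nothing is read from their place among the 13. A single member, Ube3a, was at least 2-fold higher, 1 of 36 beside 6.81% of all promoters and 8.12% of protein-coding ones. It was also the single member at least 2-fold over IgG in that library, with 122 reads against 40, beside 5.85% of all promoters. The member median was -0.31. Scaled by library totals, 10 members were lower, 8 were higher and the median was 0.54.

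Dio3 held 993 reads in wild type H3K27me3 and 23 in the library labelled EedcKO H3K27me3, beside 32 and 37 in IgG. In the H3K27ac libraries it held 18 reads in wild type and 1235 in the library labelled EedcKO H3K27ac. By label, therefore, its H3K27me3 was 38.9-fold lower and its H3K27ac 68.2-fold higher relative to the median promoter, and its highest counts stood in the wild type H3K27me3 and the labelled EedcKO H3K27ac libraries.

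Sfmbt2 had the same layout, with 747 and 20 reads in the H3K27me3 libraries and 14 and 1109 in the H3K27ac libraries. Zdbf2 held 650 and 35 reads in the H3K27me3 libraries and 50 and 752 in the H3K27ac libraries. Ascl2 held 773 and 51 reads, and then 44 and 1090. At every one of these genes the reads labelled EedcKO H3K27me3 were near the EedcKO IgG reads, which were 16, 22 and 60 in the same order.

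Dlk1 held 562 and 31 reads in the H3K27me3 libraries and 26 and 637 in the H3K27ac libraries, Phlda2 687 and 45, then 41 and 947, and Grb10 569 and 38, then 33 and 763. Over the 9 members with 418 or more wild type H3K27me3 reads, the library labelled EedcKO H3K27me3 held between 20 and 51 reads and the library labelled EedcKO H3K27ac between 583 and 1235. Their relative log2 ratios by label ran from -5.28 to -3.15 for H3K27me3 and from 3.42 to 6.26 for H3K27ac. The 9 were picked by the same wild type H3K27me3 reads that the H3K27me3 ratio divides by. The choice itself therefore favoured low values of that ratio. Plagl1, a zinc finger transcription factor gene, took a lesser part, with 192 and 37 reads in the H3K27me3 libraries and 62 and 320 in the H3K27ac libraries.

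By label, 12 of 36 members were at least 2-fold higher in EedcKO H3K27ac, beside 18.2% of all promoters and 20.7% of protein-coding ones. These were the same 9 members and Plagl1, with Slc22a18 and the weakly covered Ndn (6 and 14 reads). Against EedcKO IgG, 10 members were at least 2-fold over in that library, the 9 and Plagl1, beside 6.22% of all promoters. Ube3a, Impact and Magel2 were at least 2-fold lower, 3 of 36 beside 11.7% of all promoters and 18.3% of protein-coding ones; scaled by library totals this count was 16 and the member median moved from 0.16 to -0.88.

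Set against wild type H3K27me3 instead of wild type H3K27ac, the library labelled EedcKO H3K27ac had 0 of 36 members at least 2-fold higher, beside 2.55% of all promoters, and 1 at least 2-fold lower, Nnat, beside 4.49%. The 9 marked members then lay between 0.27 and 0.66 on the relative log2 scale. Read by these counts, the labelled EedcKO H3K27ac library was within 2-fold of wild type H3K27me3 at each of these 9, and the labelled EedcKO H3K27me3 library was near IgG there. Set against wild type H3K27ac, the labelled EedcKO H3K27me3 library had 1 member at least 2-fold higher, Ndn (6 and 24 reads), beside 13% of all promoters, and 2 lower, Magel2 and Meg3, beside 6.18%. Ube3a differed in the other direction: it held 46 reads in wild type H3K27me3 and 122 in the library labelled EedcKO H3K27me3, against 156 in wild type H3K27ac and 44 in the library labelled EedcKO H3K27ac. Which antibody each EedcKO library received was not tested.

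**Figure D2:**
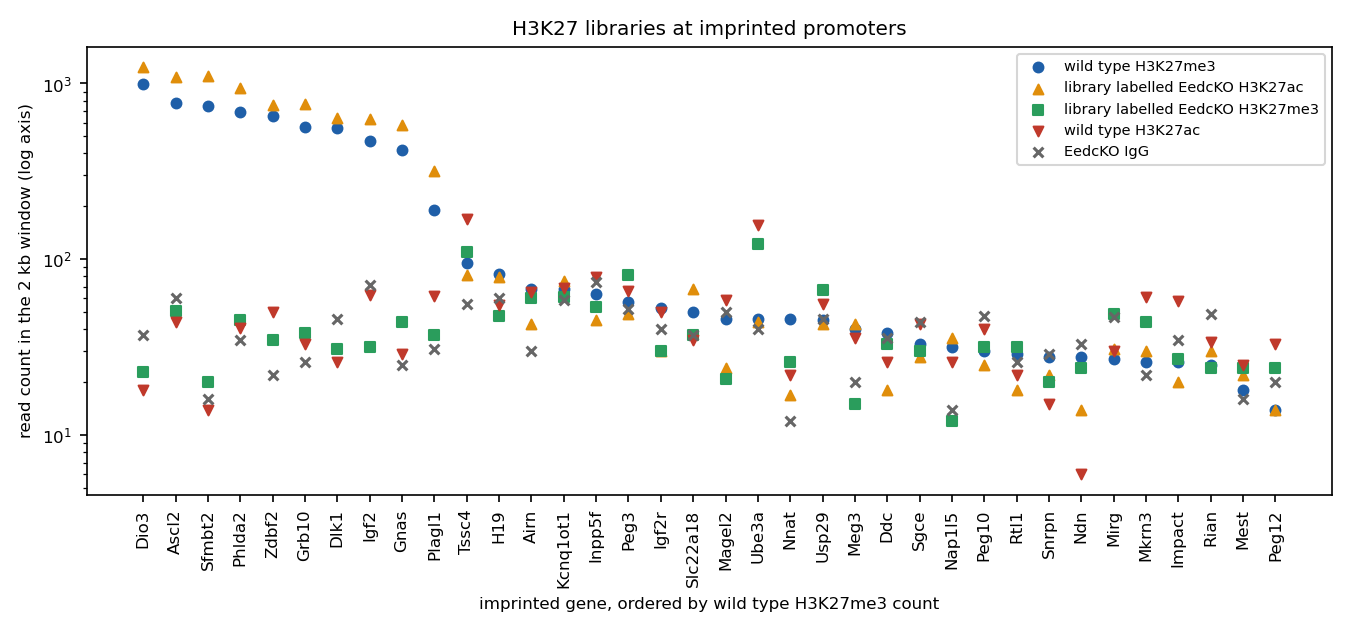
Read counts of 5 libraries at the 36 imprinted promoters, ordered by wild type H3K27me3 count, on a log axis, 1 point per gene and library. From Dio3 to Plagl1 the wild type H3K27me3 and the labelled EedcKO H3K27ac points stand together at 192 to 1235 reads, above wild type H3K27ac, the labelled EedcKO H3K27me3 and EedcKO IgG; to the right of Plagl1 the 5 libraries intermingle, with Tssc4 and Ube3a higher in wild type H3K27ac.

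Eed itself was flatter across the members in the EedcKO library. In wild type the members ranged from 1.52 to 60.1 RPKM, with an SD of 1.60 across genes on the log2 scale. In EedcKO they ranged from 1.73 to 22.1 RPKM with an SD of 0.65, beside 0.37 in both input libraries. Over all promoters the SD was 1.73 in wild type and 1.44 in EedcKO. Relative to the median promoter, 19 of 36 members were at least 2-fold lower in EedcKO Eed, beside 30% of all promoters and 48.2% of protein-coding ones. A further 9 members were at least 2-fold higher, beside 22.6% and 16.4%. The share of lower members was therefore near that of protein-coding promoters. Scaled by library totals, 9 members were lower and 12 higher.

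The 19 include all 12 members with Eed over input in wild type, but those were picked by the same wild type Eed reads that the ratio divides by, so nothing is read from this overlap. Peg12 held 187 Eed reads in wild type and 19 in EedcKO, with 14 and 8 in input, a relative log2 ratio of -3.64 (interval -4.50 to -3.05). Ube3a held 203 and 34 reads with 26 and 22 in input, a ratio of -2.96 (interval -3.58 to -2.48). Both were well over input in wild type and less than 2-fold over it in EedcKO.

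Dio3 held 237 and 46 Eed reads with 23 and 20 in input, a ratio of -2.76. Zdbf2 held 190 and 45 with 26 and 15 in input, a ratio of -2.48, and Dlk1 154 and 39 with 17 and 14, a ratio of -2.38. Against EedcKO input, log2 ratios ran from -0.63 to 1.34 over the 9 members with 418 or more wild type H3K27me3 reads and from -0.14 to 0.80 over the 8 Eed members without H3K27me3. Others among the 19 were Igf2r (145 and 46 reads), the receptor gene that clears IGF2, its antisense partner Airn (129 and 41), Nap1l5 (110 and 33), Peg10 (118 and 47), Sgce (118 and 42), the phosphatase gene Inpp5f (108 and 56) and Nnat (92 and 46).

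The 9 higher members were Rian, Impact, Meg3, Rtl1, Tssc4, Mirg, Slc22a18, Ddc and Sfmbt2. In wild type they held 6 to 16 Eed reads, below their 17 to 31 input reads. In EedcKO they held 27 to 61 reads beside 18 to 30 in input, and their log2 ratios to input lay between -0.23 and 0.60. The higher values in EedcKO were thus at about the level of input, and the wild type values under it. Rian, for example, held 7 and 41 Eed reads with 23 input reads in both genotypes, and Meg3 11 and 47 with 22 and 30 input reads.

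Eed was at least 2-fold over input in EedcKO at 4 of 36 members, beside 4.71% of all promoters and 6.84% of protein-coding ones. These were Gnas (64 reads against 16 in input, log2 ratio 1.34, interval 0.58 to 2.28), Ascl2 (63 against 16, 1.32, interval 0.56 to 2.26), Phlda2 (59 against 17, 1.14, interval 0.39 to 2.06) and Igf2 (41 against 12, 1.10, interval 0.21 to 2.23). All 4 belong to the 10 members with wild type H3K27me3, and 0 of the other 26 passed; the input counts behind these ratios are low.

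**Figure D3:**
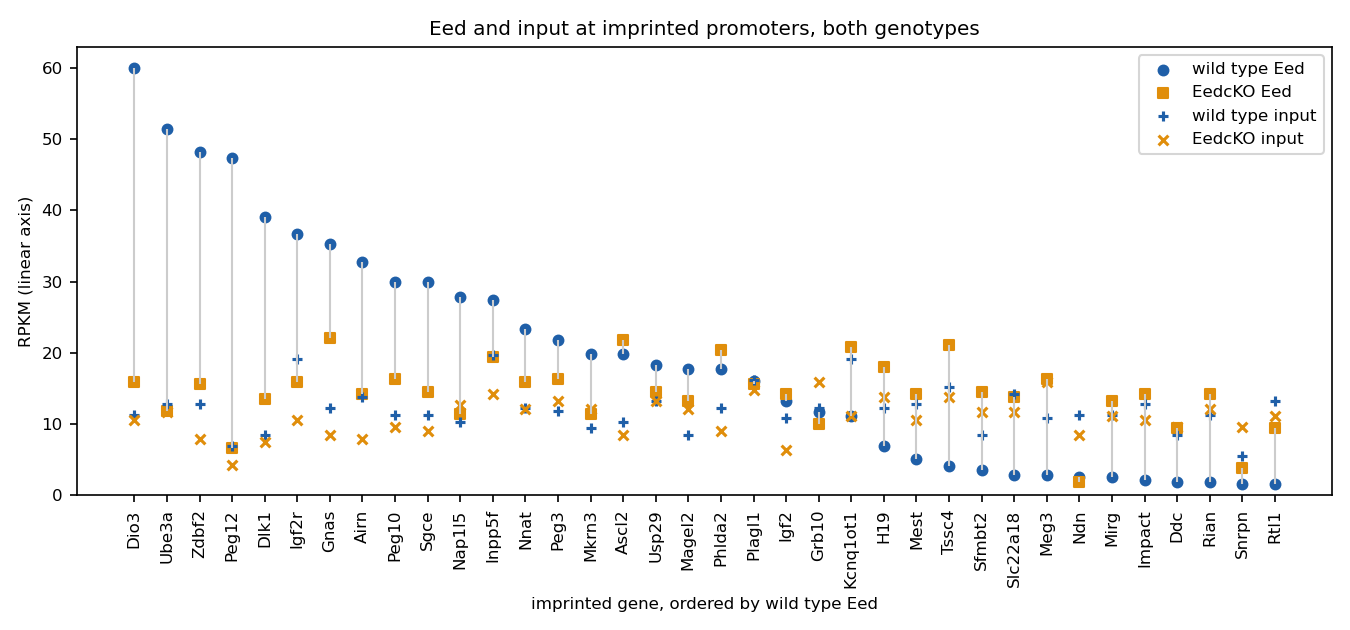
Eed and input levels in RPKM (linear axis) at the 36 imprinted promoters in both genotypes, ordered by wild type Eed, with a grey line joining both Eed values of a gene. Wild type Eed descends from 60.1 to 1.52 RPKM, while EedcKO Eed lies between 1.73 and 22.1 RPKM near the input markers, so the lines point down on the left and up on the right.

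RNA-Pol2 differed at few members. Relative to the median promoter, 3 of 36 were at least 2-fold higher in EedcKO, beside 12.2% of all promoters and 22.7% of protein-coding ones, and 1, Ndn, was at least 2-fold lower, beside 7.86% and 4.18%. Ndn held 31 and 15 RNA-Pol2 reads, fewer than its 45 and 33 IgG reads, and its window holds no RefSeq start. With a pseudocount of 1 RPKM, Ndn no longer passed. The member median of 0.40 was near the 0.48 of protein-coding promoters; scaled by library totals it was -0.01, and 1 member was higher. Zdbf2 held 33 RNA-Pol2 reads in wild type and 121 in EedcKO, with 20 and 22 in IgG, a relative log2 ratio of 1.60 (interval 1.09 to 2.26). It was the only one of the 10 members with wild type H3K27me3 that passed. Ube3a held 118 and 352 reads with 30 and 40 in IgG, a ratio of 1.34 (interval 1.05 to 1.67), and Igf2r 72 and 176 with 36 and 40 in IgG, a ratio of 1.05. Kcnq1ot1, the silencing RNA of its cluster, was just below the limit with 62 and 134 reads, 31 and 59 in IgG, and a ratio of 0.88.

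Most genes with H3K27me3 in wild type showed no such difference in RNA-Pol2. Dio3 held 49 and 44 reads, Igf2 61 and 66, Grb10 53 and 60, Dlk1 38 and 57, Gnas 47 and 72, Ascl2 80 and 100, Phlda2 49 and 90 and Sfmbt2 12 and 26. Against IgG in EedcKO, RNA-Pol2 was at least 2-fold over at Ube3a, Tssc4, Zdbf2 and Nnat, 4 members beside 11.8% of all promoters. Tssc4 had the most RNA-Pol2 reads of the members in both genotypes, 185 and 381, with 27 and 56 in IgG. Among the controls, 1 member, Inpp5f, had at least 2-fold higher IgG in EedcKO (33 and 74 reads), beside 7.33% of all promoters, and 0 had lower IgG, beside 6.77%. For input, 0 members were higher and 0 lower, beside 3.33% and 2.5%.

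Split by the expressed allele, which is general knowledge and was not measured in this tissue, the classes differed for Eed. The median log2 ratio of wild type Eed to input was 0.88 over 22 paternally expressed members and -1.29 over 10 maternally expressed ones. Over all promoters it was -1.32, and over protein-coding ones -0.17. Noncoding RNA genes in the maternal class were H19, Meg3, Rian and Mirg, and in the paternal class Airn and Kcnq1ot1. The relative ratio between genotypes was -1.31 over the paternal and 0.85 over the maternal class, a difference of -2.16 that taking out the median leaves as it is. Over protein-coding promoters the median relative ratio was -0.91. This ratio divides by the same wild type Eed reads, so it is not a second, separate difference. In EedcKO the median log2 ratio of Eed to input was 0.39 over the paternal and 0.31 over the maternal class. In the relative ratio both classes covered nearly the whole range. The paternal members ran from -3.64 at Peg12 to 1.66 at Impact, the maternal ones from -2.96 at Ube3a to 1.81 at Rian. Members of neither class are separate draws. In the maternal class Meg3, Rian and Mirg lie in the Dlk1-Dio3 cluster and Phlda2, Ascl2, Slc22a18 and Tssc4 in the Kcnq1ot1 cluster. In the paternal class Peg3 and Usp29, and Peg10 and Sgce, share most of their reads. Peg12, Snrpn, Ndn, Magel2 and Mkrn3 lie in the Snrpn-Ube3a cluster, and Dlk1, Rtl1 and Dio3 in the Dlk1-Dio3 cluster. For the other targets the classes lay close together in wild type, with medians of -0.41 and -0.44 for H3K27me3, -0.03 and -0.09 for H3K27ac, and -0.19 and -0.08 for RNA-Pol2. No test was made of any of these differences.

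**Figure D4:**
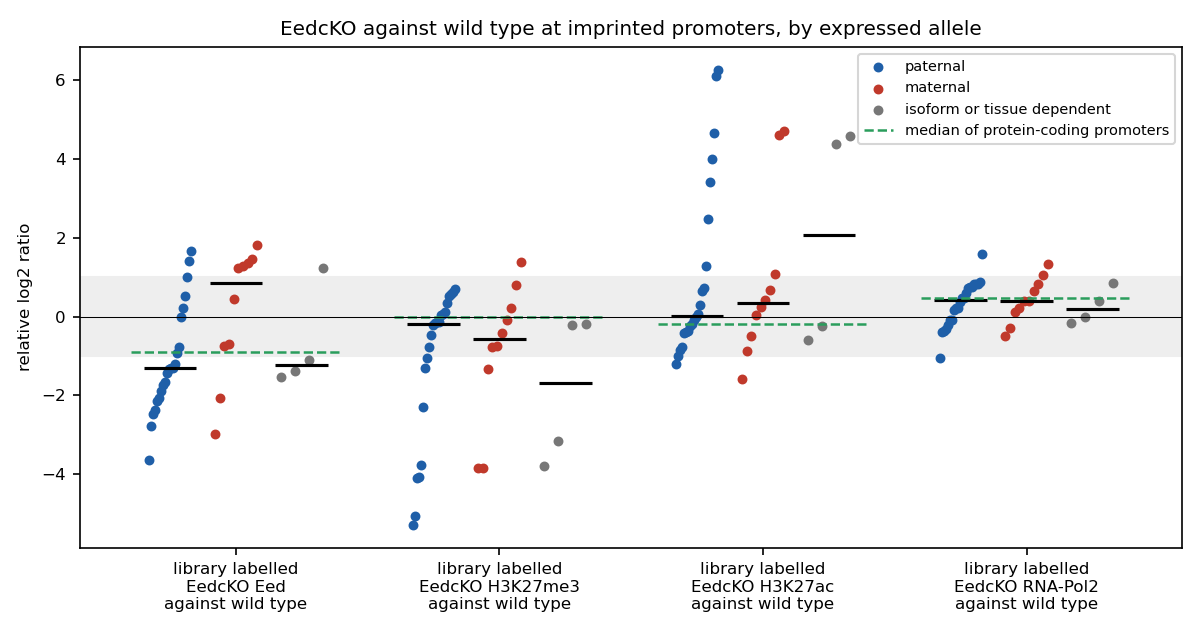
Relative log2 ratio of EedcKO to wild type for the 36 imprinted promoters, by target as labelled and by expressed allele; black lines are class medians, green dashed lines the median of protein-coding promoters, and the grey band less than 2-fold. For Eed the paternal median lies at -1.31 and the maternal one at 0.85, with overlapping points; for the H3K27 libraries the marked genes stand apart, low for the labelled H3K27me3 and high for the labelled H3K27ac.

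The marks were set out differently from cluster to cluster. The Dlk1-Dio3 cluster spans 828 kb between its outer members (chr12:109451823-110280067, mm10) and holds 115 windows. Wild type H3K27me3 was at least 2-fold over IgG at 5 of them, all toward the flanks: Dlk1 at one end, and Dio3, its antisense RNA gene Dio3os, Mir1247 and the gene model Gm34785 at or toward the other. The windows of Dio3, Dio3os and Mir1247 overlap and share reads. Between the flanks, the noncoding RNA genes were not over IgG by the 2-fold rule, which allows for library size: Meg3 had 40 H3K27me3 reads against 17 in IgG, Rian 25 against 23 and Mirg 27 against 38, and the protein-coding Rtl1 had 29 against 36. Eed followed the same layout among members, with 154 reads at Dlk1, 237 at Dio3 and 6 to 11 at the members between them.

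The Kcnq1ot1 cluster spans 536 kb and holds 25 windows, of which 8 carried H3K27me3. Besides Ascl2 and Phlda2 these included the potassium channel gene Kcnq1 (454 reads against 59 in IgG) and the growth-restraining cell cycle inhibitor gene Cdkn1c (230 against 28), which also had 297 Eed reads against 27 in input. Tssc4 and Slc22a18 stand between marked windows in this cluster and held 96 and 50 H3K27me3 reads. The authors' lists of summits, which give the highest point of each peak, place 36 wild type H3K27me3 summits in this stretch out of 10662 in the list. The library labelled EedcKO H3K27me3 had 0 there out of a much shorter list of 671, and the library labelled EedcKO H3K27ac had 25 out of 10164. Eed summits in the stretch numbered 24 of 61019 in wild type and 36 of 39351 in EedcKO.

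The Snrpn-Ube3a cluster, over 3238 kb and 267 windows, held 0 windows with H3K27me3 over IgG and 0 wild type H3K27me3 summits. It held 39 Eed summits in wild type and 15 in EedcKO, from the same lists, whereas the Dlk1-Dio3 cluster held 32 and 42. The wild type list is the longer one, and the difference between clusters was not tested. In the Igf2-H19 cluster H3K27me3 lay at the Igf2 end: Igf2 held 472 reads, its antisense gene Igf2os 1267 and Mir483 661, whereas H19 held 83 against 48 in IgG. Igf2os also had 291 wild type Eed reads and 69 in EedcKO, beside 52 and 41 at the Igf2 window.

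**Figure D5:**
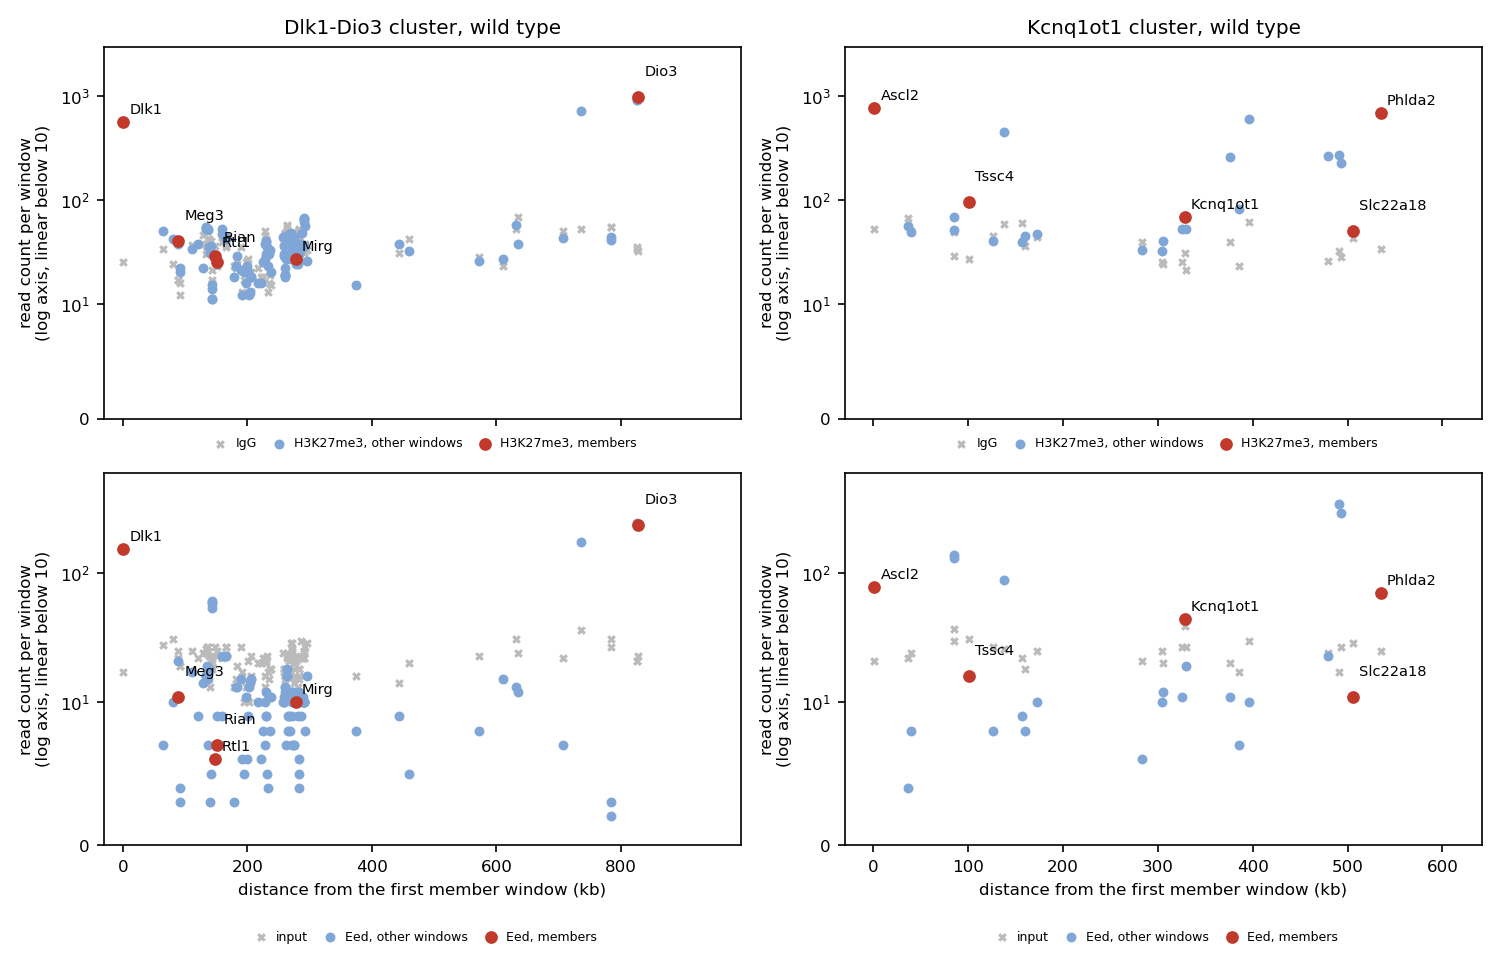
Wild type read counts of all windows in the Dlk1-Dio3 and Kcnq1ot1 clusters against the distance from the first member window in kb; the count axis is logarithmic above 10 and linear below. H3K27me3 (top) stands over IgG at both flanks of the Dlk1-Dio3 cluster, with 562 reads at Dlk1 and 993 at Dio3, and at 8 windows spread over the Kcnq1ot1 cluster; Eed (bottom) is high at Dlk1 and Dio3 and low at Meg3, Rtl1, Rian and Mirg.

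Summits gave a separate view of the same libraries. A wild type Eed summit lay within 1 kb of the window centre at 23 of 36 members, beside 29.1% of all promoters and 54.8% of protein-coding ones. In EedcKO Eed the count was 4 (Mkrn3, Zdbf2, Kcnq1ot1 and Ascl2), beside 9.41%. For H3K27me3 it was 7 in wild type, beside 6.4%, and 1 (Ube3a) in the library labelled EedcKO, beside 1.18%. The 7 were Plagl1, Grb10, Sfmbt2, Phlda2, Ascl2, Tssc4 and Dlk1. Igf2, Zdbf2, Dio3, Gnas and Nnat, over IgG by window counts, had no wild type H3K27me3 summit that near. Tssc4 had a wild type summit of both marks, with a score of 4.43 for H3K27me3 and 14.1 for H3K27ac. For H3K27ac it was 2 in wild type, Ube3a and Tssc4, beside 10.3%, and 6 in the library labelled EedcKO, beside 5.93%: Plagl1, Grb10, Sfmbt2, Phlda2, Dlk1 and Gnas. For RNA-Pol2 it was 2 in wild type, Ube3a and Tssc4, beside 4.92%, and 9 in EedcKO, beside 19.7%.

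A window shows a single start of a gene, and imprinted genes often have several. RefSeq gives 45 starts for the 31 matched members, and 19 of these lie outside the windows. The windows of Grb10, Mest, Mirg, Ndn and Plagl1 hold none of their RefSeq starts. Several of the starts outside carried a wild type Eed summit within 1 kb. The Plagl1 start 30.3 kb from its window had a summit with an authors' score of 56.3, the Mest start 14.5 kb away 60.6, the Snrpn start 135 kb away 43.5 and the Ndn start 1.71 kb away 50.4. The Sfmbt2 start 1.93 kb away had 2 such summits, the best with a score of 21.3. The Grb10 start 1.26 kb away had 1 with a score of 74.5. The windows of Mest, Snrpn, Ndn, Sfmbt2 and Grb10 held 20, 6, 10, 14 and 46 wild type Eed reads. These window counts therefore describe the start in the window and not these other starts. At Igf2, the start 5.54 kb from the window had an Eed summit of score 56.1 and an H3K27me3 summit of score 170. The Gnas window is the most upstream of 3 RefSeq starts; those 43.4 and 45.7 kb away had wild type H3K27me3 summits with scores of 7.05 and 5.38, below the 64.1 of the summit nearest to the window.

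A second list of 46 imprinted genes holds further genes of these clusters. Wild type H3K27me3 was at least 2-fold over IgG at 10 of the 46, beside 7.62% of all promoters and 13.3% of protein-coding ones, and H3K27ac at 8, beside 15.9% and 30.5%. Wild type Eed was over input at 12, beside 14.5% and 28.6%. In EedcKO Eed, 20 were at least 2-fold lower, beside 30% and 48.2%, and 9 higher, beside 22.6% and 16.4%. In the library labelled EedcKO H3K27me3, 14 of 45 tested were lower, beside 13% and 18%, and in the library labelled EedcKO H3K27ac 14 of 45 were higher, beside 18.2% and 20.7%. EedcKO RNA-Pol2 was higher at 7 of 46, beside 12.2% and 22.7%. Among them, Kcnk9, a potassium channel gene, held 792 reads in wild type H3K27me3, 31 in the library labelled EedcKO H3K27me3 and 1282 in the library labelled EedcKO H3K27ac. The transcription factor gene Klf14 held 523, 15 and 539 reads in the same order. Cdkn1c held 230, 35 and 284, with 56 RNA-Pol2 reads in wild type and 171 in EedcKO beside 28 and 44 in IgG. Of 25 genes that set or keep imprints, such as Zfp57, Trim28 and the DNA methyltransferase genes, 0 had wild type H3K27me3 at least 2-fold over IgG, beside 7.62% of all promoters and 13.3% of protein-coding ones, and 12 had Eed over input, beside 14.5% and 28.6%.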

How the data were processed

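Promoter counts and summit lists of 12 libraries were used, 1 per genotype and target. The build was mm10 and the software listed comprised ChIPseeker 1.22.1, deepTools 3.4.0, MACS2 2.2.7.1 and Bowtie2 2.4.1, per the submitters' processing notes. How duplicates and poorly mapped reads were filtered is not given there. The deposited promoter tables, which the authors named for RPKM, hold whole-number counts: their totals exceed 500000, the most that RPKM over windows of 2 kb can sum to. The deposited summit lists, called per library, give a −log10 score whose kind (p-value or q-value) is not stated. These scores are the authors' own, read within a list.

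From the counts, RPKM was computed with the promoter total of each library. Log2 ratios used a pseudocount of 0.5 RPKM, which understates the change of low promoters, and were kept where the mean level reached 1 RPKM; 2-fold was the size rule. Ratios between genotypes had the median of tested promoters taken out. Intervals are exact 95% Clopper-Pearson intervals of the count ratio and reflect counting error alone: the reads have no molecular identifiers and may be copies. No member count was 0. The plan had assumed RPKM in the files. All members are named; counts are given for the 4 members highest over control per wild type target, and the 4 with the largest ratio per target among those with at least 50 counts, with others added to describe groups. The members and lists were chosen with earlier results of these data known. Of the symbols, 38896 matched RefSeq, which gave gene type. Alternatives were another pseudocount, other filters, scaling by totals, control subtraction, the other EedcKO H3K27 library, and other summit rules. The ratio script was tested on simulated data. Python 3.11.15, NumPy 2.4.6, pandas 2.3.3, SciPy 1.17.1 and Matplotlib 3.10.9 were used.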

Additional observations from a re-analysis of the deposited data

How the results depend on the processing

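Filters (at least 20 reads over both libraries, or none) left all counts within 1.5 times and all medians within their intervals. A pseudocount of 1 RPKM moved 1 result: 0 rather than 1 member was lower in RNA-Pol2. With the median promoter taken out, 22 rather than 12 members had wild type Eed over input and 9 rather than 2 had H3K27ac over IgG. For the alternatives in this section, shares over all promoters were not computed. With library totals, 9 members were lower in EedcKO Eed (19 as reported); by label, 8 were higher in H3K27me3 (1) with a median of 0.54 (-0.31), 16 were lower in H3K27ac (3) with a median of -0.88 (0.16), and 1 was higher in RNA-Pol2 (3) with a median of -0.014 (0.40). With the control subtracted, 9 were higher in H3K27me3, 13 lower in H3K27ac, 2 lower and 8 higher in RNA-Pol2, and the medians of all 4 targets were 0, since many members were then at 0 in both libraries. With the other EedcKO H3K27 library, 1 member was lower and 0 higher than wild type H3K27me3, with a median of 0.17, and 1 was higher than wild type H3K27ac. Summits within 5 kb were found at 15 members in EedcKO Eed (4 within 1 kb), 11 in wild type H3K27me3 (7), 4 in wild type RNA-Pol2 (2) and 16 in EedcKO RNA-Pol2 (9). With a score of at least 10 they were found at 0 members in EedcKO Eed, 0 in the library labelled EedcKO H3K27me3 (1), 1 in wild type H3K27ac (2), 1 in wild type RNA-Pol2 and 2 in EedcKO RNA-Pol2. Apart from these constructions the cause was not tested. No paired analysis was possible because each group has 1 library. Depth limits the ratios to input: over all 36 members the input windows held 8 to 40 reads, so their counting intervals are wide.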
